A study of Mus musculus with 18 samples.

Results

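Tubb2a, which codes for a beta tubulin, was the tubulin gene that differed most with the time of day in mouse liver. Its mean value was 200.6 ± 22.4 (SD, n = 3) at ZT1 and 14.5 ± 1.19 (SD, n = 3) at ZT9, a ratio of 13.8. Tubb4b, Tuba4a, Tuba1c and Tuba1b were also lowest at ZT9. Tubb4b and Tuba4a had ratios of 2.05 and 1.94, Tuba1c was highest at ZT17 with a ratio of 2.38, and Tuba1a, Tuba1b, Tubb5 and Tubb6 spanned between 1.38-fold and 1.76-fold. The genes are Tubb2a, Tubb2b, Tubb4b, Tubb5 and Tubb6 of the beta family and Tuba1a, Tuba1b, Tuba1c and Tuba4a of the alpha family, looked up by their symbols among the 14451 genes of the expression table. Values were found for 8 of these 9 genes. The expression of Tubb2b was not analysed here, and only its reference sequence is used. The family was chosen by the strong 12 h component of Tubb2a in these same 18 livers. The time profiles of its members are therefore given as a description. Calls of the members by tests fitted across all genes are counted once beside the background, as no independent evidence.

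Wild-type (WT) male mice of 8 to 9 weeks were kept in 12 h of light and 12 h of darkness, without any treatment. Whole livers were taken every 4 h, from 1 h after lights on (zeitgeber time 1, or ZT1) to ZT21, so that the groups ZT1, ZT5 and ZT9 fall in the light and the groups ZT13, ZT17 and ZT21 in the dark. Polyadenylated RNA of 3 livers per ZT was sequenced, and by the study's methods these were the livers with the best RNA among more mice. Each of the 18 livers came from another animal, so that no animal was followed over time. Values are estimated read counts scaled to a common normalized library size, and are called normalized values below. The lowest value of each liver was taken to be an offset of 0.5 reads, which the sources do not state. All numbers of estimated reads rest on this assumption. On it, between 10268168 and 23242842 estimated reads stood behind a liver.

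Alpha and beta tubulin join into the dimer from which microtubules are built. In hepatocytes, microtubules carry secretory vesicles, organelles and transporters between the sinusoidal and the canalicular side. Newly made tubulin is folded by prefoldin and the chaperonin TRiC and then assembled into the dimer by the tubulin folding cofactors. Cells also adjust tubulin mRNA to the amount of free dimer: TTC5 recognizes the first residues of a tubulin chain as it leaves the ribosome and, through SCAPER, recruits the CCR4-NOT deadenylase to the mRNA.

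The start of the coding sequence is the stretch on which this recognition depends, and it is printed for 8 of the 9 genes, without Tubb6, to show what these sequences share. The sequences are read 5′ to 3′ from the GRCm38 transcripts of GENCODE M21, and the capitals mark the first 12 bases, which are the first 4 codons.
Tubb2a: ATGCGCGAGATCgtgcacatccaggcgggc
Tubb2b: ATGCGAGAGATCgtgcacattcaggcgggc
Tubb4b: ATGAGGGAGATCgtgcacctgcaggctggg
Tubb5: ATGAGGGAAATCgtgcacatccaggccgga
Tuba1a: ATGCGTGAGTGCatctccatccatgttggc
Tuba1b: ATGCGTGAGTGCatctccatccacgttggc
Tuba1c: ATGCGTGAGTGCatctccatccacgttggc
Tuba4a: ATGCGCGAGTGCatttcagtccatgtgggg
All 4 beta sequences shown end their capitals with ATC and all 4 alpha sequences with TGC. The likeness goes on through the coding sequence. Tubb2a and Tubb2b had 96.5% identical coding bases, Tuba1a and Tuba1b 98.3%, and Tuba1b and Tuba1c 97.9%, whereas Tubb2a and Tubb4b had 83.7% and Tubb2a and Tuba4a 57.1%.

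This likeness bears on the counting, because RSEM divides reads that match several genes. Of the 50-base windows of the Tubb2a transcript, 50.4% occurred in no transcript of another gene, and 712 of the 1561 windows also occurred in Tubb2b, its neighbour on chromosome 13. The unique share was 44.5% for Tubb4b, whose other windows were mainly those of the pseudogene Tubb4b-ps1, 99.9% for Tubb5 and 100% for Tubb6. It was 24.5% for Tuba1a, 16.9% for Tuba1b and 39.0% for Tuba1c, which lie together on chromosome 15 and share most of their other windows. The division of reads among these 3 genes, and that between Tubb2a and Tubb2b, is therefore uncertain. For Tuba4a the share was 51.2%, since 1379 of its exon bases overlap those of Stk16 on the other strand, and whether the counting used the strand is not given in the sources used here. Stk16 had its highest mean of 67.7 at ZT17 and its lowest of 55.7 at ZT5, a ratio of 1.21. The part of Stk16 reads in the values of Tuba4a was not tested.

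Tubb2a (ENSMUSG00000058672) lies on the minus strand of chromosome 13, at chr13:34074274-34078007 of GRCm38. Its normalized values were 175, 215 and 212 in the 3 livers of ZT1, 64.9, 55.5 and 39.4 at ZT5, and 14.9, 15.4 and 13.2 at ZT9. They were 70.4, 57.9 and 59.4 at ZT13, 142, 119 and 152 at ZT17, and 155, 138 and 173 at ZT21. The livers of ZT9 were all below every other liver, and those of ZT1 were above all others. From ZT1 to ZT5 the mean was 3.77-fold lower, and from ZT5 to ZT9 a further 3.67-fold lower. From ZT9 to ZT13 it was 4.31-fold higher and from ZT13 to ZT17 2.20-fold higher, while the livers of ZT17 and ZT21 overlapped. In order of level the times were ZT1, ZT21, ZT17, ZT13, ZT5 and ZT9, and the neighbours in this order overlapped only for ZT21 with ZT17 and for ZT13 with ZT5. The value at ZT9 rested on at least 140 estimated reads per liver. Ranked by how many times its highest ZT mean exceeded its lowest, Tubb2a was number 43 of the 12480 genes with a mean value of at least 1.

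**Figure D1:**
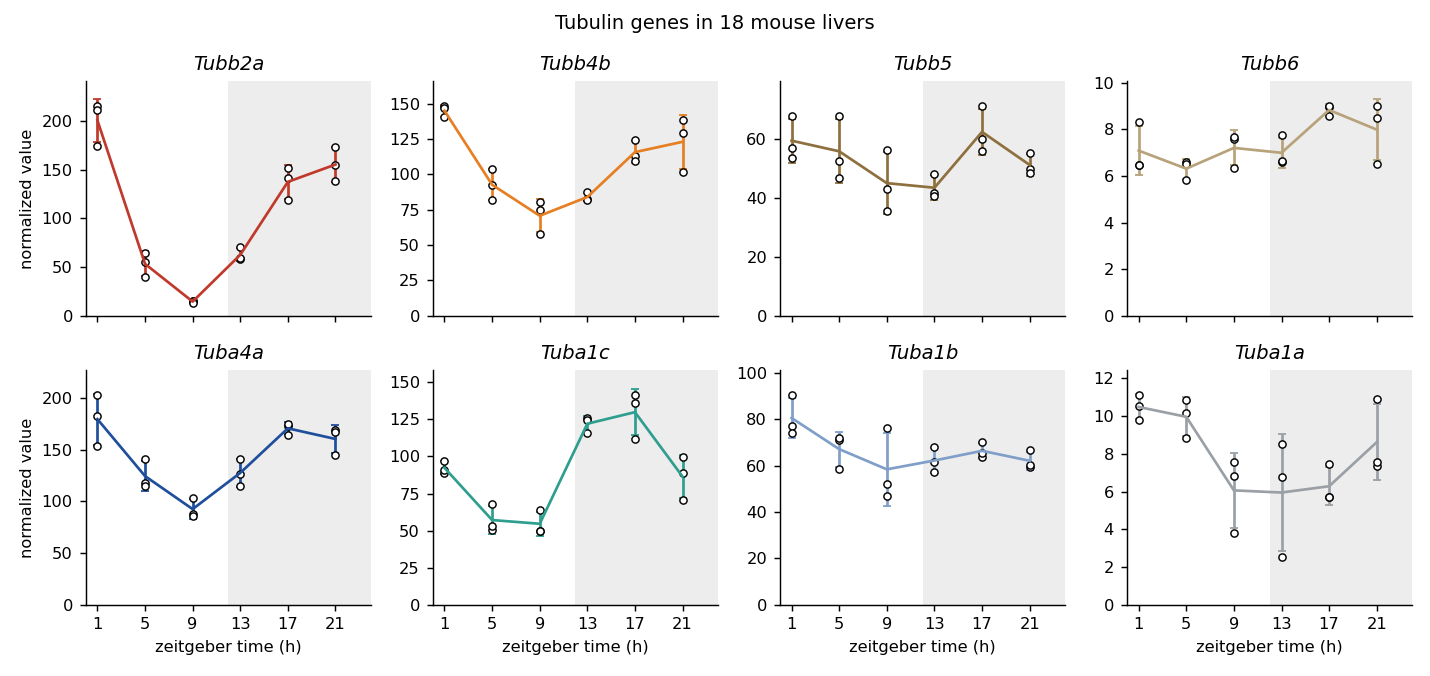
Normalized values of the 8 tubulin genes against zeitgeber time in hours, each panel with its own linear axis from 0. Open points are the 18 livers, lines join the means of 3 livers, bars are SDs and grey marks the dark phase. The ZT9 livers of Tubb2a, between 13.2 and 15.4, lie below all its other livers.

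A mean level in whole liver holds both the number of cells of each type and the RNA in each cell, and fewer cells of a type and less RNA per cell cannot be told apart. The 6 hepatocyte markers were all measured, with albumin (Alb) the most abundant, and their summed value was 77728, 72663 and 75873 in the livers of ZT9 and between 77908 and 102947 elsewhere. Its highest ZT mean was 1.27-fold its lowest, against 13.8-fold for Tubb2a. Alb, with a mean value of 64809, made up most of this sum. An F test across the ZT groups called 3 of the 6 markers at a q-value below 0.05, and 26.3% of all genes. The 6 Kupffer cell markers, led by Clec4f, summed to 181, 222 and 214 at ZT9 and 88.8, 132 and 138 at ZT21. The 6 sinusoidal endothelial markers, led by Fcgr2b, had their highest mean of 212 at ZT5 and their lowest of 148 at ZT21, and the 7 stellate cell and fibroblast markers, led by Dcn, theirs of 268 at ZT5 and 212 at ZT21. The 5 erythroid markers, led by Alas2, reached 674 in 1 liver of ZT5 and lay between 108 and 406 in the others. Markers of dividing cells were low, with a sum between 5.02 and 12.7 per liver, as were those of lymphocytes, with at most 5.03, and of neutrophils, with at most 2.72. The mesothelial markers, 3 of 4 measured and led by Upk3b, summed to 5.02, 5.96 and 6.83 at ZT1, where Tubb2a was highest as well, and to 3.73, 2.77 and 3.34 at ZT13, where they were lowest. The 5 cholangiocyte markers, led by Spp1, had their highest mean of 48.9 at ZT17 and their lowest of 37.5 at ZT5, and the smooth muscle markers, 3 of 4 measured and led by Tagln, theirs of 9.03 at ZT17 and 6.04 at ZT21. None of the 5 neuron markers was analysed here. The part of these markers in the tubulin values was not tested.

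The promoter of Tubb2a is shown because it holds a full cAMP response element (CRE), the palindrome TGACGTCA that CREB and ATF factors bind. The sequence is the 200 bases before the RefSeq start, at chr13:34078009-34078208 on the minus strand of GRCm38, written 5′ to 3′ with the CRE and the TATA box (TATAAA) in capitals.
Tubb2a: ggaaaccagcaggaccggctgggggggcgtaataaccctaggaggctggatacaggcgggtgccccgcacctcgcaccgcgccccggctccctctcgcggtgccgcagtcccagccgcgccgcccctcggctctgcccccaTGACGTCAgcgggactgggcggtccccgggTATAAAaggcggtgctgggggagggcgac
The CRE begins 59 bases and the TATA box 29 bases before the start. Both strands were searched from 250 bases before to 50 bases after the start of 32851 RefSeq promoters, of which 1.79% held the CRE and 13.6% the TATA box. Of the 7 members with a promoter in that table, Tubb2a alone held the CRE. Its half-site TGACG, which the full element also contains, was found in Tubb2a, Tubb4b, Tuba1c and Tuba4a and in 20.8% of all promoters. The E-box CACGTG, bound by CLOCK and BMAL1, was found in Tubb5 among the members and in 7.15% of all promoters. No member held the heat shock element GAANNTTC, the D-box TTATGTAA or the RORE half-site AGGTCA in this window, which 7.86%, 0.938% and 16.3% of all promoters held. A match gives only the presence of these letters.

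Tubb4b and Tuba4a had their lowest mean at ZT9, as Tubb2a, Tuba1c and Tuba1b did, over a smaller range than Tubb2a. Tubb4b (ENSMUSG00000036752, chr2:25222160-25224702, minus strand) codes for a widely expressed beta tubulin. Its values were 140, 148 and 147 at ZT1, 81.8, 104 and 92.5 at ZT5, and 74.4, 80.1 and 57.6 at ZT9. They were 82.3, 82.0 and 87.4 at ZT13, 113, 109 and 124 at ZT17, and 129, 101.4 and 139 at ZT21. The 3 livers of ZT1 were above all others, those of ZT9 were below all others, and the ZT17 and ZT21 livers overlapped. Its promoter is shown for the repeated CCAAT box, the site of the factor NF-Y, which stands in capitals together with TGACG in the 200 bases at chr2:25224703-25224902 of the minus strand.
Tubb4b: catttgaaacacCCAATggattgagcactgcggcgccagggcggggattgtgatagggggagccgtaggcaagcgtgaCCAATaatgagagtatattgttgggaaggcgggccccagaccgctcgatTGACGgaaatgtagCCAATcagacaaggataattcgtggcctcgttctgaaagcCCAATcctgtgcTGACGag
A CCAAT box was present in 37.4% of all promoters and in those of Tubb4b, Tubb5, Tuba1a and Tuba1c.

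Tuba4a (ENSMUSG00000026202, chr1:75214228-75219865, minus strand) had the highest mean normalized value of the 8 genes, 143. In the livers of ZT1 it stood at 154, 203 and 182, at ZT5 at 118, 141 and 115, and at ZT9 at 87.8, 104 and 86.2. At ZT13 it was 141, 126 and 115, at ZT17 173, 164 and 175, and at ZT21 169, 145 and 167. The livers of ZT9 were all below the others, and those of ZT1, ZT17 and ZT21 overlapped at the top. Its highest mean was 180 at ZT1, but without the second liver of ZT1 that mean was 168, below the 171 of ZT17.

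Tuba1c (ENSMUSG00000043091, chr15:99029891-99038110, plus strand) was high in the first part of the dark phase instead. It had values of 88.7, 91.2 and 97.2 at ZT1, 50.3, 53.4 and 67.7 at ZT5, and 50.01, 49.8 and 64.1 at ZT9. These became 116, 126 and 124 at ZT13, 141, 112 and 136 at ZT17, and 99.4, 70.9 and 89.0 at ZT21. The livers of ZT13 and ZT17 overlapped with each other and were above all others, and those of ZT5 and ZT9 overlapped and were below all others. Its lowest mean was at ZT9, or at ZT5 without the third liver of ZT5 (51.9). Between ZT9 and ZT13, Tuba1c was 54.6 ± 8.20 and 122 ± 5.45 (SD, n = 3 each), a change that Tubb4b, at 70.7 ± 11.7 and 83.9 ± 3.01 (SD, n = 3 each), showed to a smaller extent.

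The other 4 genes had ranges closer to the spread between livers of a ZT. Tuba1b (ENSMUSG00000023004, chr15:98931425-98934565, minus strand) lay between 46.9 and 90.4 with its highest mean of 80.6 ± 8.61 (SD, n = 3) at ZT1, and it was the member whose livers of the highest and the lowest ZT overlapped. At ZT9 its livers had 52.2, 76.3 and 46.9, and without the second of these its range over the ZT means was 0.69 in log2 units in place of 0.48. Without the third, its lowest mean was that of ZT21 (62.1) and not that of ZT9 (64.2). Tubb5 (ENSMUSG00000001525, chr17:35833921-35838306, minus strand), a beta tubulin of most tissues, lay between 35.6 and 71.0, and in the order of its ZT means every neighbour overlapped the next. Its highest ZT became ZT1 without the first liver of ZT17 (59.3 against 57.9), and its lowest ZT9 without the second liver of ZT9 (39.3 against 43.4). Tubb6 (ENSMUSG00000001473, chr18:67390717-67402749, plus strand) lay between 5.83 and 9.00, with 8.84 ± 0.236 (SD, n = 3) at ZT17 and 6.32 ± 0.426 (SD, n = 3) at ZT5. Tuba1a (ENSMUSG00000072235, chr15:98949837-98953703, minus strand), an alpha tubulin abundant in neurons, lay between 2.53 and 11.1, with 10.5 ± 0.660 (SD, n = 3) at ZT1. Its lowest liver was at ZT13, where the other 2 livers had 8.54 and 6.77. With 1 liver removed, its highest or its lowest ZT changed in 5 of 18 cases: the lowest was at ZT9 (5.32, 5.68 and 6.06) without the first or the second liver of ZT9 or the second of ZT13, and at ZT17 (5.70) without the first of ZT17. Without the third liver of ZT5 the highest was at ZT5 (10.52). Tuba1a and Tubb6 rested on 37 to 212 and 67 to 156 estimated reads per liver.

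A cosine of 24 h and a cosine of 12 h were fitted together to log2(value + 1) of each gene. The 24 h amplitude of Tubb2a was 1.62 ± 0.066 (SE) with its peak at 21.2 h, and its 12 h amplitude was 0.71 ± 0.066 (SE) with peaks at 2.37 h and 12 h later. Tubb4b and Tuba4a had 24 h amplitudes of 0.47 ± 0.056 (SE) and 0.42 ± 0.049 (SE) with peaks at 22.1 h and 21.1 h. That of Tuba1c was 0.57 ± 0.058 (SE) with its peak at 17.5 h, and its 12 h amplitude was 0.36 ± 0.058 (SE) with its first peak at 2.04 h. The 12 h amplitudes of Tubb4b and Tuba4a were 0.15 ± 0.056 (SE) and 0.19 ± 0.049 (SE), and those of the other 4 members were between 0.06 and 0.17. With 6 time points, the 12 h term describes how each profile departs from 1 smooth wave a day.

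**Figure D2:**
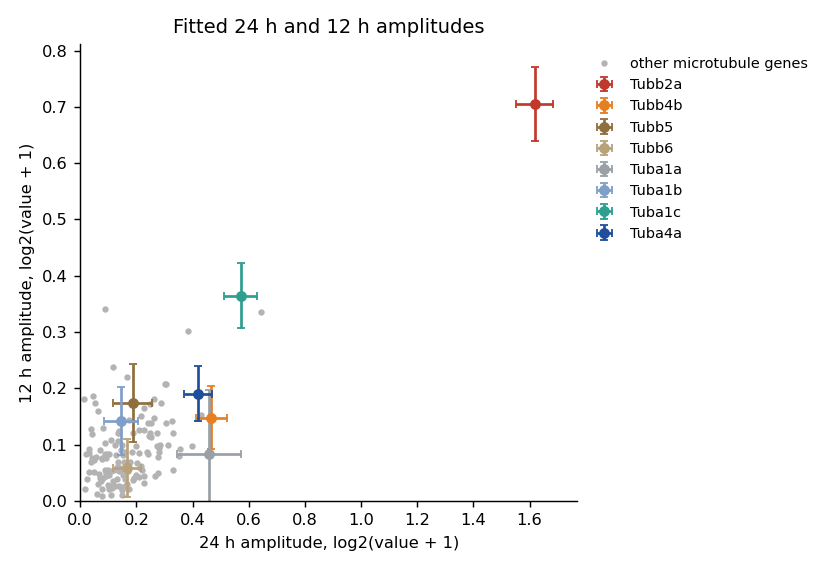
Fitted 12 h amplitude against 24 h amplitude, both in log2(value + 1), with bars of 1 SE for the 8 tubulin genes and grey points for the 135 other microtubule genes measured. Tubb2a stands alone at 1.62 and 0.71, and Tuba1c comes next among the members.

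At a limma q-value below 0.05, the time-of-day F test across the 6 ZT groups called 26.3% of the 14449 genes tested, and 4 of the 8 members (Tubb2a, Tubb4b, Tuba1c and Tuba4a). The 24 h term called 37.0% of all genes and 6 of the 8 members, with Tubb6 and Tuba1a added. The call of Tubb6 was lost in 12 of 18 fits with 1 liver removed (q at most 0.122), and the rank test JTK called neither Tubb6 (q = 0.238) nor Tuba1a (q = 0.130). The 12 h term called 0.872% of all genes and 2 of the 8 members, Tubb2a and Tuba1c. With the 12 h pair fitted alone it called 0 genes in all, so that both calls ended. Without the second or the third liver of ZT1, the q-value of the 12 h term of Tuba1c rose to at most 0.0568. The livers of the highest and the lowest ZT did not overlap in 70.8% of all genes and in 7 of the 8 members. The median of highest over lowest ZT mean was 1.85 over the members and 1.48 over all genes. Since the family was chosen on these livers, nothing is read from these counts, nor from the kept or lost calls and q-values of single members.

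**Figure D3:**
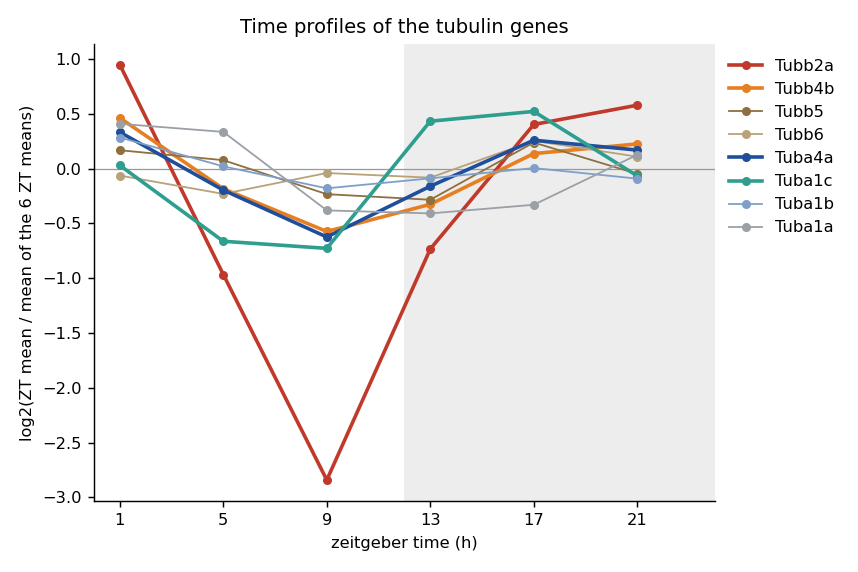
Mean of each ZT relative to the mean of the 6 ZT means, on a log2 scale, against zeitgeber time in hours for the 8 tubulin genes, with the dark phase in grey. Tubb2a, Tubb4b, Tuba4a, Tuba1c and Tuba1b have their lowest mean at ZT9, and Tuba1c, Tubb5 and Tubb6 their highest at ZT17.

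For levels between genes, the normalized values were divided by the kilobases of merged exons. On this scale the mean level over the 18 livers was 64.6 for Tubb2a, 50.4 for Tubb4b, 39.5 for Tuba1c, 38.5 for Tuba4a, 35.3 for Tuba1b, 15.9 for Tubb5, 4.38 for Tuba1a and 3.04 for Tubb6. This order depends on the length used. Divided by the longest coding transcript, an alternative chosen after the data were seen, Tubb4b (65.8) was above Tubb2a (64.6), and Tuba4a (50.2) above Tuba1c (45.6). Tubb2a made up 57.9% ± 1.85 (SD, n = 3) of the summed level per kilobase of the 4 beta genes at ZT1, and 15.3% ± 1.19 (SD, n = 3) at ZT9. 
The sum of the 4 beta genes per kilobase was 215 ± 17.98 (SD, n = 3) at ZT1 and 59.3 ± 9.23 (SD, n = 3) at ZT9. The sum of the 4 alpha genes ranged less, from 83.4 ± 9.38 at ZT9 to 142 ± 9.04 (SD, n = 3 each) at ZT17. The ratio of beta to alpha was 1.56 ± 0.051 at ZT1, 0.97 ± 0.083 at ZT5, 0.71 ± 0.074 at ZT9, 0.76 ± 0.030 at ZT13, 1.15 ± 0.038 at ZT17 and 1.46 ± 0.095 at ZT21 (SD, n = 3 each). Divided by the longest coding transcript, the ratio was 1.49 ± 0.040 at ZT1, 0.77 ± 0.082 at ZT9 and 1.11 ± 0.033 at ZT17 (SD, n = 3 each). With both lengths, every liver of ZT1 and ZT21 was above every liver of ZT9 and ZT13. The level of the ratio and the time of its minimum rest on the lengths. Not divided by length, likewise chosen after the data were seen, it was 1.14 at ZT1, 0.65 at ZT9, 0.62 at ZT13 and 0.87 at ZT17, and by transcript length it was 0.77 at both ZT9 and ZT13. The sums leave out Tubb2b and describe mRNA, not protein.

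**Figure D4:**
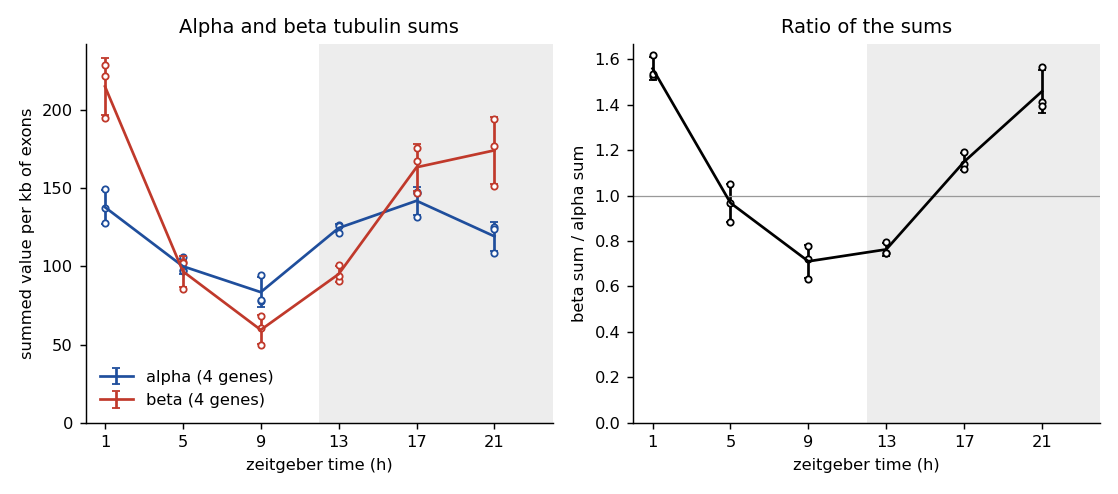
Left, summed normalized value per kilobase of exons for the 4 alpha and the 4 beta genes against zeitgeber time in hours. Right, the beta sum divided by the alpha sum, with a line at 1. Points are livers, lines join means of 3 livers, bars are SDs and grey marks the dark phase; on this scale of length the ratio is 1.56 at ZT1, 0.71 at ZT9 and 0.76 at ZT13.

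Over the 18 livers, which share the 6 time points, log2(value + 1) of Tubb2a had a Pearson correlation of 0.949 with Tuba4a, 0.898 with Tubb4b and 0.602 with Tuba1c. With Tubb5, Tuba1b, Tuba1a and Tubb6 it was 0.576, 0.538, 0.375 and 0.33. By rank, the correlation of Tubb2a was 0.463 with Tuba1c and 0.581 with Tubb5. After the mean of each ZT was taken away, so that only differences between livers of the same ZT were left, the median correlation over the 28 pairs of members was 0.317. All genes of a liver share its library scaling, and pairs of other genes were not computed. Whether this level is particular to tubulins was therefore not tested. The highest correlation of a pair was 0.748, between Tubb2a and Tubb5, followed by 0.712 between Tubb5 and Tuba1b. Between Tubb2a and Tuba1c it was -0.217. Tuba1c had the lowest ones, -0.497 with Tuba1a and -0.438 with Tuba1b. These 3 are the genes whose reads are the hardest to divide, with 1005 windows of 50 bases common to Tuba1b and Tuba1c, and the part of this in their correlations was not tested.

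Of the 12480 genes with a mean of at least 1, with the 8 members among them set aside, the 8 whose log2 values were most like those of Tubb2a over the 18 livers were Pnkd, Trim2, Blcap, Psen2, Clock, Arntl, Tjp3 and Dtx4, with Pearson correlations between 0.966 and 0.974. By rank, their correlations with Tubb2a were between 0.849 (Pnkd) and 0.953 (Arntl). All 8 had their lowest mean at ZT9, which follows from their choice by likeness to Tubb2a and is no separate result. Arntl codes for BMAL1 and Clock for its partner CLOCK, the activators of the circadian oscillator. Arntl was 31.6 at ZT1 and 1.31 at ZT9, and Clock was 77.2 and 24.96. Psen2, a subunit of gamma-secretase, was 223 at ZT21 and 85.0 at ZT9. The gene most like Tubb4b was Psmd14, a subunit of the proteasome (0.943), and that most like Tuba4a was Ran, the GTPase of nuclear transport (0.943). Tuba1c was most like Rpl7l1 (0.954), Tuba1a like Rnf220 (0.903), Tubb6 like Ufc1 (0.845), Tubb5 like Zmynd8 (0.840) and Tuba1b like Mthfd2 (0.799).

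The genes that fold, modify, bind and use tubulin were listed by function. The lists were drawn up with earlier results of these livers known, so their counts are not independent evidence. Of 157 such genes listed, 135 were measured, and 35 of them (25.9%, against 26.3% of all genes) differed between the 6 ZT groups. Of these 35, 19 had their highest mean in the light and 16 in the dark, with 10 at ZT5 and 8 at ZT17. Of all 3802 called genes, 53.4% had their highest mean in the light and 46.6% in the dark, with 22.5% at ZT5 and 17.4% at ZT17. The 24 h term called 58 (43.0%, against 37.0%), whereas JTK called 26 of the 135 genes and 2018 of all genes. The 12 h term called Dynll1 alone. The counts of each list below stand beside the 26.3% of all genes called by the F test and the 37.0% called by the 24 h term. In the lists below, values are mean ± SD of 3 livers and q-values are those of the F test unless another term is named.

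**Figure D5:**
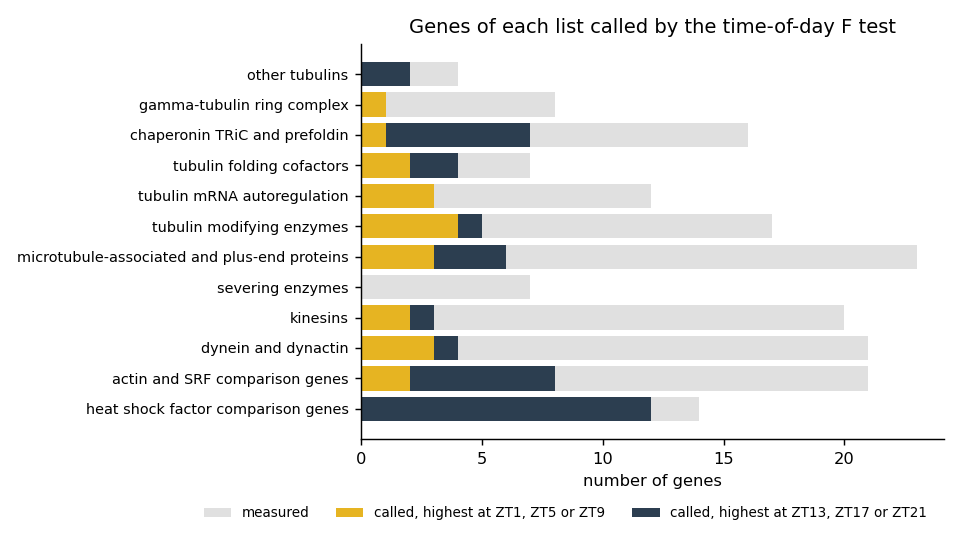
Number of genes measured in each list (grey) and, within it, the number called by the time-of-day F test with their highest mean in the light (yellow) or in the dark (dark blue). The chaperonin and prefoldin list has 6 of its 7 called genes highest in the dark, against 46.6% of all called genes, and the severing enzymes have none called.

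Of the other tubulins, 4 of 11 were measured. Tubg1, the gamma tubulin on which new microtubules start, rose from 21.2 ± 0.234 at ZT5 to 35.02 ± 3.82 at ZT17 (q = 0.00461). Tubd1, the delta tubulin of centrioles, was 4.54 ± 0.117 at ZT13 and 2.70 ± 0.6001 at ZT9 (q = 0.0371), a call that did not hold in 13 of 18 fits with 1 liver removed (q at most 0.0977). Tuba8 and Tube1 had low means of 1.46 and 1.16 and did not pass the F test, with q of 0.159 and 0.0608. The 24 h term called 3 of the 4 measured, which included Tube1 (24 h q = 0.0112). In the ring complex that holds gamma tubulin, the F test called 1 of 8 genes and the 24 h term 5. Nedd1, its targeting subunit, was 20.4 ± 3.11 at ZT5 and 12.4 ± 2.79 at ZT17 (q = 0.0259, and 0.0514 without the second liver of ZT5). Tubgcp2 and Tubgcp3 had F-test q of 0.0564 and 0.0919 and 24 h q of 0.0183 and 0.0289, and the 24 h call of Tubgcp2 was lost without the third liver of ZT5 (q = 0.0541) and that of Tubgcp3 in 5 of 18 fits (q at most 0.0738). The 24 h calls of Mzt1 and Tubgcp4 were lost in 13 of 18 fits each (q at most 0.0968 and 0.1023).

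In the folding machinery, the F test called 7 of 16 genes of TRiC and prefoldin and 4 of 7 cofactors, and the 24 h term 10 and 4. Of all genes, the F test called 26.3% and the 24 h term 37.0%. Cct3, Cct6a and Cct5, subunits of the TRiC ring, were highest at ZT17, as were Cct2 and Cct7. Cct3 had 109 ± 2.92 at ZT17 and 64.9 ± 7.54 at ZT9 (q = 0.000663), and Cct6a 131 ± 4.67 at ZT17 and 94.5 ± 1.98 at ZT5 (q = 0.00171). Cct5 had 130 ± 1.84 and 96.5 ± 1.93 at the same times (q = 0.00364). The call of Cct2 was lost in 14 of 18 fits without 1 liver (q at most 0.0802). Pfdn4 of prefoldin was highest at ZT13 (q = 0.0243, and 0.0781 without the second liver of ZT9), and Pdcl3, a cofactor of TRiC, was the one called gene of the list with its highest mean in the light (q = 0.0236, and 0.0579 without the third liver of ZT1). The other 6 genes called by the F test were highest in the dark, as were 46.6% of all called genes. The 24 h calls of Cct8, Pfdn6 and Tcp1 were lost in 4, 2 and 2 of 18 fits (q at most 0.066, 0.0509 and 0.0536). The median ratio of highest to lowest ZT mean in this list was 1.21, below the 1.48 of all genes.

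Among the cofactors that assemble the dimer, Tbcel, which takes tubulin dimers apart, had 99.6 ± 14.7 at ZT5 and 61.8 ± 6.03 at ZT13 (q = 0.00089). Tbce had 24.9 ± 1.33 at ZT1 and 15.9 ± 1.79 at ZT13 (q = 0.0106). Tbcc had 6.88 ± 0.540 at ZT21 and 4.39 ± 1.14 at ZT5 (q = 0.0242), and its q-value was at most 0.0518 without the first or the second liver of ZT21. The call of Tbcb, highest at ZT17, was lost in 5 of 18 fits (q at most 0.0824).

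In the list of Ttc5, Scaper and the CCR4-NOT genes, the F test and the 24 h term each called 3 of 12 genes, close to the share of all genes for the F test (26.3%). All 3 called by the F test had their highest mean at ZT5, the most common time among all called genes (22.5%). Cnot6l, a deadenylase of CCR4-NOT, had 62.6 ± 3.68 at ZT5 and 37.3 ± 1.91 at ZT17 (q = 0.000191). Cnot7, another deadenylase of the complex, had 29.9 ± 3.38 and 18.8 ± 1.07 at the same times (q = 0.00236). Scaper had 7.05 ± 0.287 at ZT5 and 3.57 ± 0.173 at ZT13 (q = 0.0177). Ttc5, which recognizes the nascent chain, had 7.21 at ZT21 and 5.26 at ZT13 and did not pass (q = 0.119).

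Of the enzymes that modify tubulin, 5 of 17 were called by the F test and 8 by the 24 h term. Hdac6, which removes acetyl groups from alpha tubulin, had 18.6 ± 0.465 at ZT5 and 11.9 ± 1.86 at ZT13 (q = 0.00984). Atat1, which puts them on, had 16.2 ± 0.781 at ZT21 and 10.8 ± 1.67 at ZT9 (q = 0.0305), a call lost in 5 of 18 fits (q at most 0.0665). Ttl, which adds tyrosine back to alpha tubulin, had 8.89 ± 1.56 at ZT9 and 5.25 ± 0.060 at ZT1 (q = 0.0124). Ttll7, a polyglutamylase, was near 1 and its call was lost in 13 of 18 fits (q at most 0.138), and Agbl5 was lost without the third liver of ZT17 (q = 0.129). The 24 h calls of Tpgs2 and Ttll3 were lost in 15 and 10 of 18 fits (q at most 0.113 and 0.107). That of Ttl was lost without the first liver of ZT9 (q = 0.0547).

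Of the proteins that bind microtubules, 6 of 23 were called by the F test and 9 by the 24 h term. Map4, the main such protein outside neurons, had 48.9 ± 5.86 at ZT5 and 32.8 ± 1.05 at ZT17 (q = 0.00266). Map7, which recruits kinesin, had 36.3 ± 3.63 at ZT1 and 22.4 ± 2.65 at ZT9 (q = 0.00433). Mapre3, a protein of growing plus ends, had 34.7 ± 1.62 at ZT21 and 22.9 ± 2.23 at ZT13 (q = 0.00466). Mapre2 was called as well, and the calls of Clasp1 and Mid1ip1 were lost in 11 and 13 of 18 fits (q at most 0.121 and 0.0992). The 24 h calls of Camsap1 and Clasp2 were lost in 2 of 18 fits each (q at most 0.0572 and 0.0564). No severing enzyme of 7 was called by the F test or the 24 h term. Their smallest q-value was 0.080, for Fignl2, followed by 0.378 for Katna1 and 0.404 for Fignl1, and Spast, the one with the smallest 12 h P-value, had 0.539.

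Among the motors, Kif1b, a kinesin that carries organelles and vesicles, had 208 ± 12.4 at ZT5 and 109 ± 10.9 at ZT17 (q = 0.000267). Kif21a, a kinesin that restrains microtubule growth, had 64.8 ± 6.49 at ZT5 and 43.0 ± 3.44 at ZT13 (q = 0.0122). Klc4, a light chain of kinesin, made up the 3 called of 20 by the F test, against 6 by the 24 h term, and its call was lost in 14 of 18 fits (q at most 0.147). The 24 h calls of Klc4, Kif9 and Kif21b were lost in 9, 3 and 2 of 18 fits (q at most 0.0792, 0.0603 and 0.0559). Of 21 dynein and dynactin genes, 4 were called by the F test and 10 by the 24 h term. The 24 h calls of Dync1li2, Dync1li1, Nde1 and Dynlrb1 were lost in 12, 5, 3 and 1 of 18 fits (q at most 0.0963, 0.0751, 0.0635 and 0.0552). Dynll1, a light chain of dynein that also serves other complexes, had the smallest q-value of all 135 genes (4.91e-05), with 19.3 ± 2.06 at ZT17 and 6.39 ± 1.54 at ZT9. Its 12 h term passed with an amplitude of 0.33 ± 0.064 (SE) and q = 0.0440, and it was lost in 13 of 18 fits (q at most 0.1012). Ndel1, a dynein regulator, had 33.6 ± 3.18 at ZT9 and 22.8 ± 2.12 at ZT1 (q = 0.00666). Dync1h1, the heavy chain, had 115 ± 3.52 at ZT9 and 84.7 ± 3.796 at ZT17 (q = 0.0252), lost in 3 of 18 fits (q at most 0.0779), and the call of Dctn2 was lost in 17 (q at most 0.0959).

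Beside the tubulins, a list of actin and SRF genes and a list of heat shock genes served as comparisons from the cytoskeleton and from folding. Of 21 actin and SRF genes, 8 were called by the F test, 6 of them highest in the dark, and 7 by the 24 h term. Of all genes, the F test called 26.3%, with 46.6% of these highest in the dark. The 24 h term called 37.0% of all genes and the 12 h term 0.872%. With 1 liver removed, the calls of Acta2 and Myl9 were lost in 12 of 18 fits each (q at most 0.151 and 0.146) and that of Vcl in 4 (q at most 0.0763), and Mkl2 was lost without the third liver of ZT5 (q = 0.0573). The 24 h calls of Vcl and Cfl1 were lost in 6 and 1 of 18 fits (q at most 0.0646 and 0.0542). The 12 h term called Actg1 and Mkl1, which were lost in 11 and 13 of 18 fits (q at most 0.0729 and 0.1021). Actb and Actg1, the actins of non-muscle cells, had 508 ± 41.9 and 256 ± 62.8 at ZT17 and 246 ± 39.4 and 84.9 ± 14.3 at ZT9 (q = 0.00135 and 0.000411). Actn1, an actin crosslinker, had 38.2 ± 1.16 at ZT9 and 17.8 ± 1.94 at ZT21 (q = 5.84e-06). Of 14 heat shock genes, 13 were called by the 24 h term and 12 by the F test, the latter all highest in the dark, against 46.6% of all called genes, and Hspa1a was lost without the first liver of ZT13 (q = 0.0712). The 12 h term called 8 of the 14, which included Hspa1b, Dnajb1 and Hsp90aa1 (12 h q = 0.000419, 0.0011 and 0.0479). Of these 8, Hsp90aa1 was lost in 16 of 18 fits, Chordc1 and Dnaja1 in 9 each and Hsph1 in 6 (q at most 0.124, 0.0781, 0.0866 and 0.0781), and with the 12 h pair fitted alone none was called. Hsp90aa1 had 564 ± 21.2 at ZT17 and 122 ± 4.71 at ZT5 (q = 2.05e-06), and Dnajb1 had 46.0 ± 8.10 at ZT13 and 14.8 ± 0.459 at ZT21 (q = 8.82e-06). Hspa1b had 128 ± 60.6 at ZT13 and 7.86 ± 1.25 at ZT21 (q = 8.21e-06).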

How the data were processed

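The deposited values were a signal on a linear scale: per the labels and methods, the authors trimmed reads with cutadapt, assigned them to GRCm38 transcripts (Ensembl) with RSEM 1.2.20, which estimates counts, and normalized them with limma. Symbols came from the deposited table. Genes at the floor in every liver were left out, so that 14449 were tested.

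Values were analysed as log2(value + 1) with limma 3.58.1 in R 4.3.3, by an F test across the 6 ZT groups and by a joint fit of 24 h and 12 h cosines, each adjusted by Benjamini–Hochberg over all 14449 genes (q-value) and called below 0.05. The scripts were tested on simulated data. Gene models came from GENCODE M21 and promoters from RefSeq, both on GRCm38; the annotation release thus differs from that of the counts. Amplitudes are measured from the mean to the peak.

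The members and lists were chosen with earlier results of these data known. Named were the members, the other tubulins, the 3 genes of each pathway or comparison list with the smallest F-test P-value, the pathway gene of smallest 12 h P-value, the genes most like each member by Pearson correlation, the most abundant marker, and, named after their values were seen, genes whose call is discussed as lost, Cct7, Mapre2, Ttc5 and the neighbour Stk16. The alternatives were other pseudocounts, a filter at a mean of 1, median-ratio scaling, a variance trend, voom weights, single terms, JTK and leaving out each liver. The limma P-values weigh differences between times against the spread between the sequenced livers, each of another mouse. Information on this spread is shared across genes, and in the cosine fits it also holds departures from the fitted curve.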

Additional observations from a re-analysis of the deposited data

How the results depend on the processing

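The number of the 135 microtubule genes called by the F test was 35 and lay between 37 and 40 under the other scales, filter, scaling and weights, and between 25 and 35 with 1 liver removed at a time. For the 24 h term it was 58, between 57 and 63 under those alternatives and between 48 and 57 without 1 liver, but 26 with JTK, a rank test that called 2018 genes in all in place of 5343; the cause was not tested. The single 12 h call, that of Dynll1, became 0 with log2(value + 0.1), with log2(value) and with the 12 h pair fitted alone, and was 0 to 1 without 1 liver. Over all genes the 12 h term called 126, but 76 with log2(value + 0.1), 62 with log2(value), 0 with the 12 h pair alone, 124 with median-ratio scaling, 147 with the filter, 169 with voom weights, 176 with the variance trend, and 32 to 114 without 1 liver; the pair alone leaves the 24 h variation in the residual. The median correlation of the members within a ZT was 0.317, 0.334 with median-ratio scaling, and between 0.290 and 0.374 without 1 liver. The log2 range of Tuba1b was 0.69 without the second liver of ZT9. With 1 liver removed, the highest and the lowest ZT of Tubb2a, Tubb4b and Tubb6 stayed where they were, while those of the other 5 members changed in 1 to 5 of 18 cases. With 3 livers per ZT and 6 times, a period can be told from another only coarsely, and Tuba1a and Tubb6 rest on the fewest reads.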
